A study of Mus musculus with 2 samples.

Results

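The megalin and cubilin endocytosis receptors of the proximal tubule and their partners were examined in kidneys that lack *Cnnm2*. The 6 genes were *Lrp2*, *Cubn*, *Amn*, *Dab2*, *Clcn5* and *Ocrl*, taken by name from the 31829 gene names on the array together with all 9 of their probes. RNA came from whole kidneys of mice aged 2 months that were either Cnnm2fl/fl;Six2-Cre, called knockout here, or Cnnm2+/+;Six2-Cre, called control. Both genotypes carried the *Six2-Cre* transgene, which drives Cre in the embryonic kidney, in the nephron progenitors, so that lineages outside the nephron are not its main target. The 2 arrays were of 2 colours with exchanged dyes. Array 1 carried the knockout in Cy5 (red) and the control in Cy3 (green), and array 2 carried the reverse. The number of mice behind each RNA and any pooling are not given in the sources used here. Both arrays were taken to carry the same RNA samples, which the sources do not state, and were counted as 1 replicate per genotype, so that no test over replicates of the genotypes could be made. Ratios below are log2 of knockout over control, and an SD beside a mean is the spread between the 2 arrays, which then is technical and not the spread between mice.

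The proximal tubule takes up nearly all protein that passes the glomerular filter. Megalin (*Lrp2*) and cubilin (*Cubn*) bind it at the brush border, amnionless (*Amn*) anchors cubilin in the membrane, and the adaptor Dab2 links the tails of the receptors to clathrin. The chloride/proton exchanger ClC-5 (*Clcn5*) acts in the acidification of the early endosome and the inositol 5-phosphatase OCRL (*Ocrl*) in the recycling of the receptors, and loss of either gene causes low molecular weight proteinuria in humans, as Dent disease or Lowe syndrome.

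Transcripts of all 6 genes were measured in both genotypes, and none differed between them in a way that both arrays shared. Mean log2 ratios lay between -0.13 for *Cubn* and 0.08 for *Amn*, with 3 genes above 0 and 3 below. No gene reached a 2-fold mean change in the same direction on both arrays, against 118 of the 19697 genes tested (0.599%). None reached 1.5-fold either, against 406 genes (2.06%). With shares so small over all genes, the absence of such a change is not particular to these 6 genes. None of the 6 genes, and none of their 9 probes, had the same direction on both arrays, against 5456 genes tested (27.7%). This count was that of the deposited processed signals. It was 2 of the 6 genes (*Amn* and *Ocrl*) after loess normalization, with or without normexp background correction, and 1 (*Amn*) after each array was centred on its median, against 27.4% to 27.6% of all genes under these settings. In whole kidney RNA, fewer cells of a type and less RNA per cell cannot be told apart.

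The knockout was visible on the same arrays. *Cnnm2*, the targeted gene, was lower in the knockout on both arrays, at log2 ratios of -2.88 and -2.46 (mean -2.67 ± 0.30). Where its probe lies relative to the deleted part is not given in the sources used here. Across the 19697 genes tested, however, the ratios of the arrays ran against each other (Pearson's r = -0.51, Spearman's rho = -0.56, a description over genes, which are not replicates and share the same 2 arrays). The direction of every ratio was kept as the dye labels give it. The scanner software marked 141 of the 43020 gene spots of array 1 and 175 of those of array 2 as outliers. None of the spots of the 6 genes was among them, none was saturated, and all 9 probes were well above background in all 4 channels. Each of the 9 probes was printed once per array. For the 279 probes printed 10 times per array and well above background, the copies differed by a median SD of 0.036 on either array, and each SD between arrays given below exceeded that spread. The scanner software's own error of a log2 ratio was larger, from 0.20 to 0.22 for the 9 probes. The SD between arrays of *Amn* (0.12) and of the brighter *Ocrl* probe (0.08) lay below that error.

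The probes are oligonucleotides of 60 bases, and their positions, as deposited, refer to the mouse genome build mm9. No annotation of that build was used here, so the exon or UTR in which a probe lies is not stated. The sequences shown are those of the *Amn* probe, of the inner *Cubn* probe and of the stretch in which the *Clcn5* probes differ. The *Amn* probe, A_51_P343350, lies at chr12:112514095-112514243 on the plus strand, a span of 149 bases for 60 bases of probe, so that it crosses a junction between exons. All 3 frames of this probe are free of stop codons, and which of them is translated was not checked. Read in the second frame, the bases in capitals (2 to 19) would code for an NPX-type internalization signal. That signal is phenylalanine, any residue, asparagine, proline, any residue, then phenylalanine or tyrosine. Its kind is known from the tails of amnionless and megalin and is bound by Dab2. Such a signal in a frame free of stop codons, searched in the 3 frames of the strand as deposited, was held by 12 of the 39429 probes (0.0304%). The *Cubn* probe shown is the inner one, A_55_P2047638, which had the largest differences between arrays.
Amn A_51_P343350: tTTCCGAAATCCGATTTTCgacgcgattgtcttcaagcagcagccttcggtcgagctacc
Cubn A_55_P2047638: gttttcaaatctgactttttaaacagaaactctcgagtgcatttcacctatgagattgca
The *Clcn5* probes overlap by 55 bases and differ there by 1 base. Shown are the last 25 bases of the shared stretch, with the differing base in capitals. The difference is C49T, counted from 1 at the 5′ end of A_55_P2180301, with the base of that probe first and the base of A_55_P2106975 second.
Clcn5 A_55_P2180301: gagtaaacaagatggctaCggttta
Clcn5 A_55_P2106975: gagtaaacaagatggctaTggttta

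Of the receptors, megalin had the greatest distance between the arrays by the brightest probe. The *Lrp2* probe, A_52_P285470 (chr2:69262566-69262625, minus strand), had a processed signal of 78392 in the knockout and 64368 in the control on array 1, and 43950 and 60171 on array 2. The knockout was thus the higher channel on array 1 and the lower on array 2, and the signals of the genotypes overlapped. The log2 ratios were 0.28 and -0.45, with a mean of -0.08 ± 0.52. In both arrays the Cy5 channel was the brighter, by a mean log2 red over green of 0.37.

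Cubilin, the receptor for intrinsic factor with vitamin B12 and for many filtered proteins, was measured by a pair of probes 7571 bases apart. The brighter one, A_55_P2047639 (chr2:13197978-13198037, minus strand), had 26779 in the knockout and 25506 in the control on array 1, and 17001 and 21301 on array 2. On the log2 scale this came to 0.07 and -0.33, averaging -0.13 ± 0.28, the largest mean in size among the 6 genes by their brightest probes. On array 1 the genotypes were nearly level and on array 2 the knockout was the lower.

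The inner probe of *Cubn* (chr2:13205609-13205668, minus strand), whose sequence is given above, went the other way on each array. It had 525 in the knockout and 920 in the control on array 1, and 1203 and 592 on array 2. Its log2 ratios were -0.81 and 1.02, with a mean of 0.11 ± 1.30. It was the only one of the 9 probes to reach a 2-fold difference on any array, and the higher genotype there was the one labelled with Cy3 on both arrays (mean log2 red over green of -0.92). That size of dye difference lay at percentile 95.7 of all probes, whereas the mean lay at percentile 53.8. The probes of *Cubn* thus differed in direction on each array, while both means lay within 0.13 of 0 on the log2 scale.

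Amnionless, without which cubilin does not reach the cell surface, gave the second smallest spread. The *Amn* probe had 21778 in the knockout and 19445 in the control on array 1, and 18598 and 18694 on array 2. The knockout was the higher channel on array 1, and the channels of array 2 were nearly level. The log2 ratios were 0.16 and -0.01, with a mean of 0.08 ± 0.12.

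**Figure D1:**
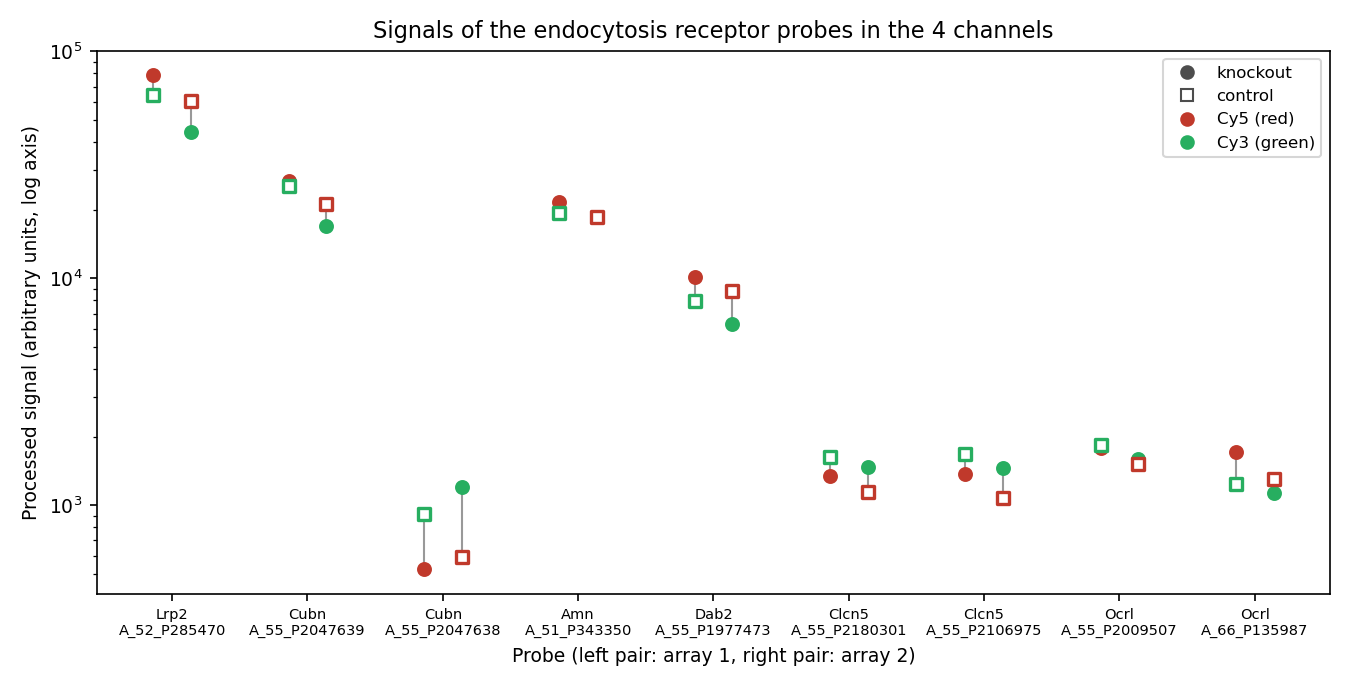
Processed signal (arbitrary units, log axis) of the 9 probes in the 4 channels. For each probe the left pair is array 1 and the right pair array 2, filled circles are the knockout, open squares the control, and the colour is the dye; each point is a single spot with no error bar. In these processed signals the higher genotype changed between the arrays for all 9 probes, by very little for *Amn*, and heights of different probes are not comparable as transcript levels.

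The adaptor had values close to those of megalin, which is not particular to it. In all, 355 genes had a pair of array ratios within a distance of 0.1 of that of *Lrp2*. *Dab2*, by A_55_P1977473 (chr15:6390616-6390675, plus strand), had 10092 in the knockout and 7952 in the control on array 1, and 6262 and 8763 on array 2. The knockout was again above the control on array 1 and below it on array 2, as for *Lrp2*. The log2 ratios of 0.34 and -0.48 averaged to -0.07 ± 0.59, and the mean log2 red over green was 0.41.

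ClC-5, the exchanger of the early endosome, was measured by the overlapping probes shown above, and these gave nearly the same values. A_55_P2180301 (chrX:6736595-6736654, minus strand) had 1340 in the knockout and 1630 in the control on array 1, and 1478 and 1144 on array 2. The knockout was the lower channel on array 1 and the higher on array 2, the reverse of *Lrp2* and *Dab2*. The log2 ratios were -0.28 and 0.37, with a mean of 0.04 ± 0.46.

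A_55_P2106975 (chrX:6736600-6736659, minus strand), which differs from it by C49T in the shared stretch, had 1368 and 1690 on array 1 and 1455 and 1078 on array 2, each time knockout first. Its log2 ratios were -0.30 and 0.43, with a mean of 0.06 ± 0.52. Because the probes share 55 of 60 bases, they are not independent measurements of the transcript.

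OCRL, which hydrolyses phosphatidylinositol 4,5-bisphosphate on endosomes, had the smallest spread by its brighter probe. A_55_P2009507 (chrX:45318853-45318912, plus strand) had 1793 in the knockout and 1836 in the control on array 1, and 1608 and 1518 on array 2. The genotypes were close on both arrays. The log2 ratios were -0.03 and 0.08, with a mean of 0.02 ± 0.08.

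The other *Ocrl* probe, A_66_P135987 (chrX:45318938-45318997, plus strand), lies 25 bases beyond the first and was less even. It had 1712 in the knockout and 1238 in the control on array 1, and 1129 and 1300 on array 2. Its log2 ratios were 0.47 and -0.20, with a mean of 0.13 ± 0.47. For *Ocrl*, as for *Cubn*, the channel that was the brighter depended on the probe.

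Read by dye instead of genotype, 5 of the 9 probes were brighter in Cy5 on average and 4 in Cy3. By the brightest probe of each gene, Cy5 was the brighter for *Lrp2*, *Cubn*, *Amn* and *Dab2* and Cy3 for *Clcn5* and *Ocrl*. For *Ocrl* the mean log2 red over green was only -0.06. It was 0.01 with normexp and loess and 0.13 with background-subtracted signals. The other probes of *Cubn* and *Ocrl* had the opposite sign. The median size of the log2 red over green was 0.26 for the 6 genes and 0.21 for all genes tested. The median log2 ratio of the 6 genes was 0.12 on array 1 and -0.17 on array 2, and that of all genes tested was 0.01 and -0.03. The median of the mean log2 ratio was -0.02 for the 6 genes and -0.01 for all genes. Whether a difference of the dyes that depends on the probe accounts for these values was not tested.

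**Figure D2:**
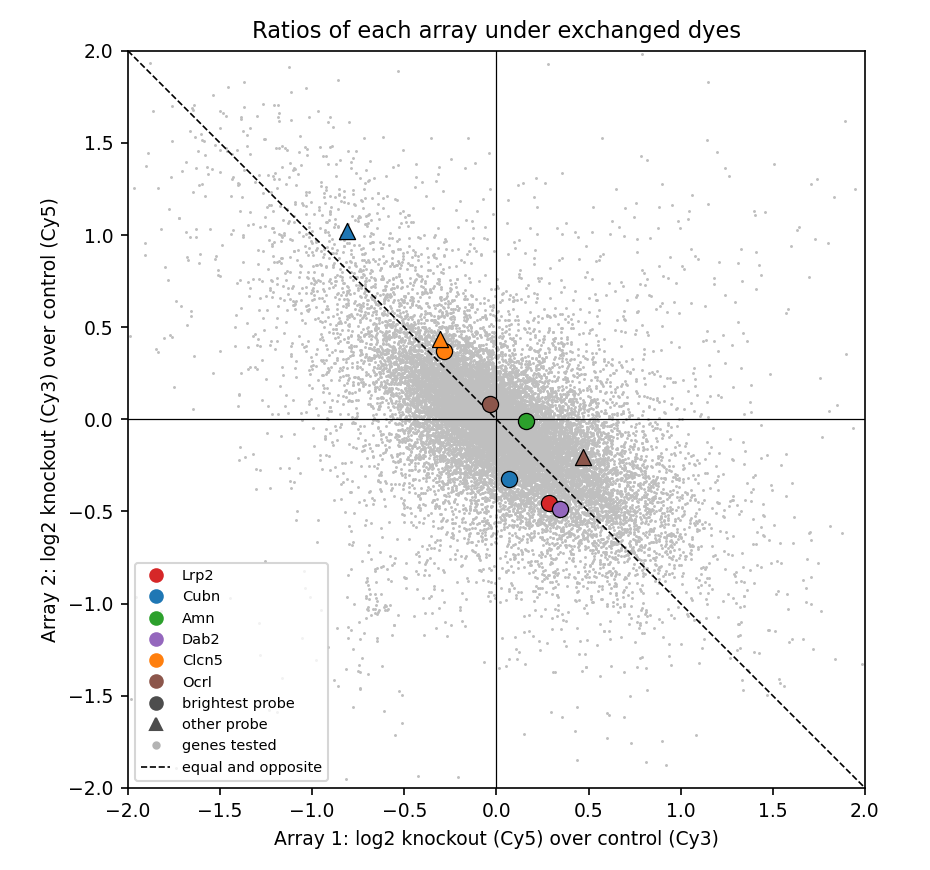
Log2 knockout over control on array 1 (x axis) against array 2 (y axis) for the genes tested (grey) and the 9 probes of the endocytosis genes (coloured; circles are the brightest probe of a gene, triangles the other). Points in the upper right or lower left have the same direction on both arrays, the dashed line marks equal and opposite ratios, and 126 of 19697 genes lie beyond the axes. With the processed signals used here, all 9 probes lie in the upper left or lower right, and the *Amn* probe and the brighter *Ocrl* probe lie close to an axis.

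The means of the 6 genes were not unusual in size for these arrays. Of all genes tested, 37.9% had a mean log2 ratio larger in size than that of *Cubn*, the largest of the 6. Among the 6957 genes at least as bright as the dimmest of the 6 the share was 24.0%, and both arrays agreed in direction for 25.1% of them. The genes with the pair of ratios nearest to that of *Cubn* were *Eif2c4*, an Argonaute protein, with 0.07 and -0.33, *Itgb2*, a leukocyte integrin, with 0.07 and -0.33, and *Atp1b2*, a sodium pump subunit, with 0.07 and -0.33. Within a distance of 0.1 of *Cubn* in the plane of both arrays lay 479 genes. For the other members that number ran from 303 for *Dab2* to 1267 for *Ocrl*, so that no gene could be picked out as alike from 2 arrays.

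The wider endocytic pathway also held no 1.5-fold change that both arrays shared. The adaptors and partners of the receptors numbered 19, among them the AP-2 subunits, clathrin chains and the megalin chaperone RAP (*Lrpap1*). None of them reached 1.5-fold in the same direction on both arrays, against 2.06% of all genes tested. With so small a share over all genes, the absence of such a gene from a list of this size is not particular to the pathway. The same direction was seen for 2 of 19, against 27.7% of all genes. The median log2 ratio of the 19 was 0.04. The highest mean was that of *Snx17*, a sorting nexin that returns LDL receptor family members to the surface, at 0.13, and the lowest that of *Ap2a2*, an AP-2 subunit, at -0.51. The array values of *Ap2a2* were -2.17 and 1.15 and those of *Snx17* -0.02 and 0.28, so that both means rested on ratios of opposite sign.

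The 22 tested genes of endosomal sorting, recycling and acidification include the Rab GTPases and subunits of the proton pump. Of these, 2 had the same direction on both arrays, against 27.7% of all genes, and none reached 1.5-fold, against 2.06%. Their median was 0.04, between -0.18 for *Rab11fip1*, an effector of Rab11, and 0.26 for *Vps35*, a retromer subunit. The array values were -0.84 and 0.48 for *Rab11fip1*, which was dim, and 0.86 and -0.35 for *Vps35*. Both means thus rested on ratios of opposite sign. *Wdr7* was not well above background in either genotype on both arrays and was left out.

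The families to which single members belong were counted in the same way. In the LDL receptor family other than megalin, both arrays had 1 direction for 1 of 9 tested genes, with a median of -0.03 and means from -0.25 for *Lrp1* to 0.15 for *Lrp12*. *Lrp1b* and *Lrp8* were not tested for low signal. Among the intracellular CLC exchangers other than *Clcn5*, with the subunit *Ostm1*, 1 of 5 did, with a median of -0.02 and means from -0.15 for *Clcn7* to 0.06 for *Clcn6*. Among the inositol 5-phosphatases other than *Ocrl*, 2 of 10 did, with a median of -0.02 and means from -0.25 for *Inpp5a* to 0.15 for *Inpp5f*. The share with the same direction was 27.7% over all genes tested. None of these genes reached 1.5-fold in the same direction on both arrays, against 2.06% of all genes tested. With so small a share, the absence of such a gene from lists of this size is not particular to the families.

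**Figure D3:**
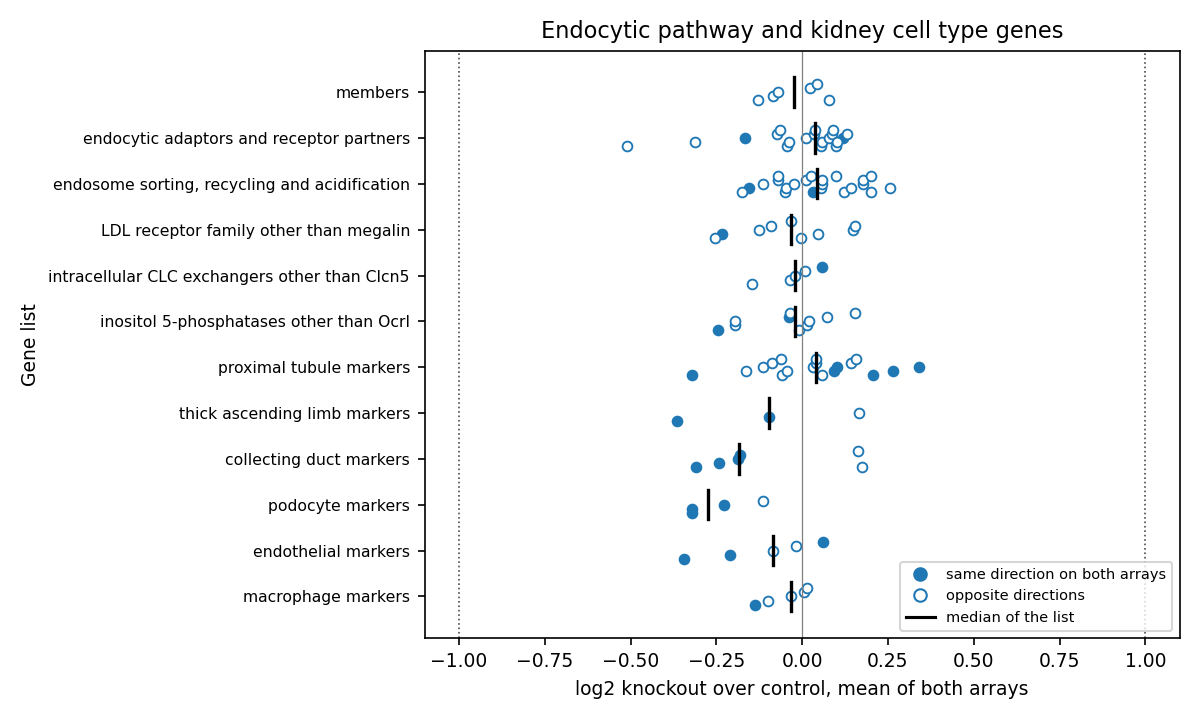
Mean log2 knockout over control of both arrays (x axis) for the 6 endocytosis genes (members) and the other gene lists (y axis). Each point is a gene by its brightest probe, filled where both arrays had the same direction, the vertical bars are list medians, and the dotted lines mark 2-fold. All points lie between the dotted lines, and no point of the 6 genes is filled.

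Other genes of the proximal tubule were measured as a check on its share of the RNA. All 18 markers, mostly transporters and brush border enzymes, were well above background, and none reached 1.5-fold, against 2.06% of all genes tested. Here 6 of 18 had the same direction on both arrays, against 27.7% of all genes. Of these, 5 were higher and 1 lower in the knockout, and the median of the 18 was 0.04. The highest was *Slc6a19*, a carrier of neutral amino acids, with 0.66 and 0.02 (mean 0.34), and the lowest *Slc4a4*, the basolateral bicarbonate cotransporter, with -0.35 and -0.29 (mean -0.32).

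Markers of other kidney cells had lower medians. These were -0.10 for 3 markers of the thick ascending limb, -0.18 for 6 of the collecting duct, -0.27 for 4 of podocytes, -0.08 for 5 of endothelium and -0.03 for 5 of macrophages. Of the collecting duct markers, 4 of 6 were lower in the knockout on both arrays, as were 3 of 4 podocyte and 2 of 3 thick ascending limb markers. Of the 5 endothelial markers 2 were lower and 1 higher on both arrays, and of the 5 macrophage markers 1 was lower. Over all genes tested, 27.7% had the same direction on both arrays, in either direction. These marker counts are those of the processed signals and were not repeated under other processing. The podocyte count includes a marker at -0.01 on array 2, where the median of all genes tested was -0.03. *Scnn1g*, of the collecting duct, was dim, with a mean log2 signal of 4.44. None of these markers reached 1.5-fold, against 2.06% of all genes, and their part in the values of the 6 endocytosis genes was not tested.

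The means of the 6 genes kept their sign under other processing, but not every alternative could have changed them. Over 8 other ways of deriving them, *Lrp2* ranged from -0.11 to -0.07, *Cubn* from -0.14 to -0.01, *Amn* from 0.06 to 0.09, *Dab2* from -0.10 to -0.06, *Clcn5* from 0.04 to 0.06 and *Ocrl* from 0.02 to 0.08. The upper end for *Cubn* came from taking the median of both its probes, whose means had opposite signs. That median could not alter a gene with 1 probe. Keeping the outlier spots left all 6 means as they were, since no spot of these genes was marked. Ratios as deposited by the authors nearly repeated the means, with *Lrp2* at -0.08 from either source. In the processed signals the arrays differed in sign for each of the 6 genes, so a kept sign of the mean shows no agreement between arrays.

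**Figure D4:**
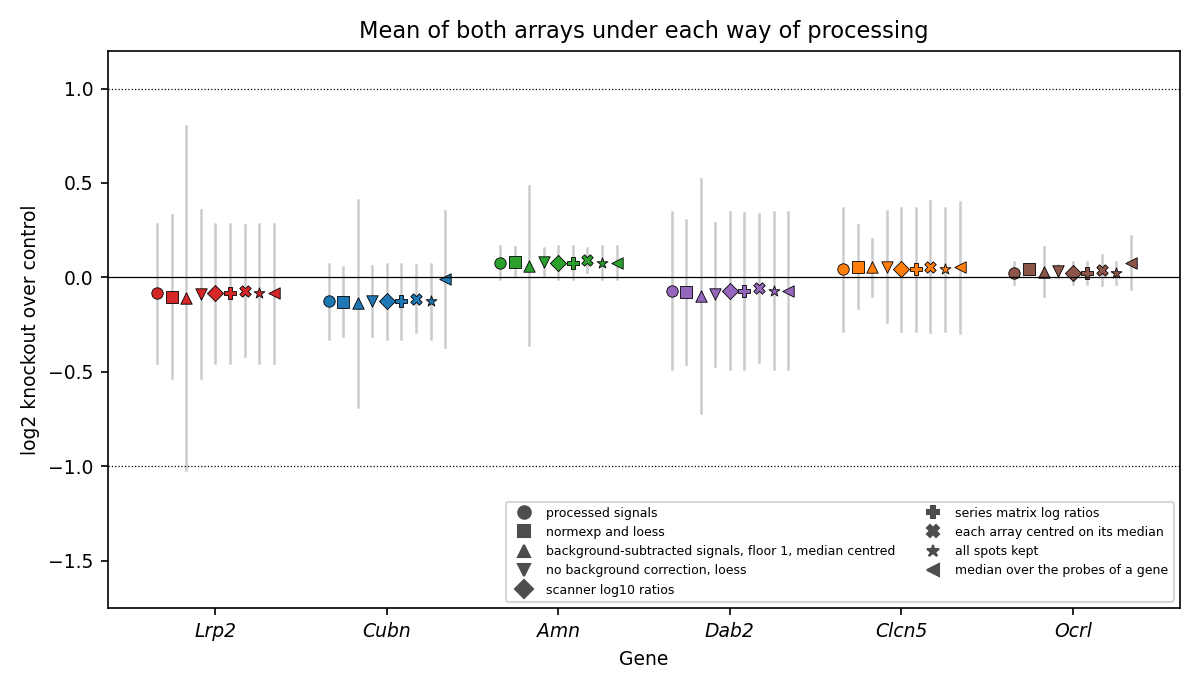
Mean log2 knockout over control of both arrays (y axis) for each of the 6 genes under the deposited processed signals and 8 alternatives (symbols). Grey lines join the values of array 1 and array 2, and dotted lines mark 2-fold. Every symbol lies between -0.14 and 0.09, while the grey lines cross 0 for nearly all.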

How the data were processed

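Two-colour arrays of kidney RNA were analysed. The authors deposited scanner output in which the signal intensity, per the file headers, was corrected by Agilent Feature Extraction 10.7.3.1 for background, spatial trend and dye (the labels name version 10.5.1.1). The authors also deposited log10 ratios, in the scanner files and in a series matrix, and these were used as alternatives. The ratio of each spot was taken as log2 of the processed signals, turned to knockout over control from the labels. Control spots and outlier spots were left out, spots of a probe were averaged, and a gene was represented by its brightest probe. To be tested, a gene needed such a probe with signal well above background on both arrays in at least 1 genotype. The other processing used limma 3.58.1 under R 4.3.3, with normexp (offset 50) and loess, and all else Python 3.11.15. The methods' paired test, which takes the arrays as replicates, was recomputed as an alternative only. The rule of size was run on simulated data only as a check of the code. The simulated dye differences were held smaller than some on these arrays, so that run gives no error rate for the rule here. The number of arrays limits the precision. Every probe of the 6 genes, the highest and lowest gene of each list and the nearest genes to the largest mean were named. Members, lists and rules were chosen with earlier results of these data known.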

Additional observations from a re-analysis of the deposited data

How the results depend on the processing

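None of the 6 genes reached a 2-fold mean change in the same direction on both arrays under any alternative that was run, and the median of their means stayed between -0.03 and 0.02 when both arrays were used. That median was 0.12 with array 1 alone and -0.17 with array 2 alone, where direction could not be compared and no member was counted as changed. The count of genes with the same direction on both arrays, an outcome added after the data were seen, was 0 with the processed signals but 2 with normexp and loess, 2 with loess and no background correction (*Amn* and *Ocrl* both times) and 1 with each array centred on its median (*Amn*). The share of all genes with the same direction was 27.6%, 27.4% and 27.5% under these alternatives. The cause was not tested. The methods' paired test takes the arrays of the dye swap as separate replicates, which they were not counted as here, so its p-values cover the spread between arrays and not between mice. By it, none of the 6 genes passed the threshold of 0.1 or an unadjusted 0.05, against 983 (4.99%) and 485 (2.46%) of the 19697 genes tested. With a mean fold above 2, 36 genes passed 0.1, and 0 did after Benjamini-Hochberg adjustment.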
